A study of Mus musculus with 12 samples.

Results

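Liver RNA levels of 39 enzymes that break down amino acids were compared between mice in which a long noncoding RNA had been knocked down, mice in which a human counterpart was added back to the knockdown, and control mice. The enzymes were chosen by name, for their place in the breakdown of aromatic, sulfur, branched-chain and other amino acids, with earlier results of these data known, so their counts against all genes are descriptions. They are 39 of the 55385 features of the deposited table. All 39 passed the filter on low values, a mean of at least 1 TPM over the 12 mice (TPM is a transcript level corrected for transcript length and library total), as did 16378 features in all.

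The liver is a main site of amino acid breakdown. An aminotransferase or a deaminase removes the nitrogen, much of which enters the urea cycle, and the carbon skeleton is passed to gluconeogenesis, ketone bodies or the citric acid cycle. Several of these genes, *Tat* and *Sds* among them, are known to be induced in fasting by glucocorticoids, glucagon and cAMP, the signal carried by the transcription factor CREB and its coactivators.

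The animals were male C57BL/6 mice, 7 weeks old at injection, which received adenovirus with a total of 500000000 plaque-forming units and were killed on day 7. The Ad-Ctrl group received a Lac virus with the pAdV5 virus. The Ad-shmGULL group (knockdown) received a virus with a short hairpin RNA against the mouse lncRNA mGULL, together with pAdV5, and the Ad-shmGULL+hGULL group (rescue) the hairpin virus with a virus expressing the human lncRNA hGULL. Each group held 4 mice, and all 3 groups, the controls included, carried adenovirus, so that no uninfected liver entered a comparison. The study lists several hairpins against mGULL, and which of them was injected is not stated in the sources used here. In addition, the levels of mGULL and hGULL in these libraries were not analysed here. The labels number the samples within a group and give no litter or cage, so the p-values measure the spread between these samples.

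Every library summed to the same total, so the sequencing depth of each mouse is unknown and precision is given by the spread between 4 mice. The hepatocyte markers *Alb*, *Apoa1*, *Ttr*, *Serpina1a* and *Cyp2e1* summed to 75348 to 110330 TPM in control, 79859 to 95259 TPM in knockdown and 68233 to 81719 TPM in rescue mice. Of these 5 markers 1, *Apoa1*, was lower past the fold threshold defined below, by the same log2 value of -0.60 in knockdown and in rescue against control mice. The 4 endothelial markers, of which 1 (*Stab2*) was higher after knockdown with an adjusted p under 0.05, summed to 74.5 to 123 TPM in control, 118 to 146 TPM in knockdown and 114 to 133 TPM in rescue mice. The sums of the macrophage, T and NK cell, neutrophil, cholangiocyte, stellate and erythroid markers overlapped between all groups. Of their single genes, *Sox9* of cholangiocytes was higher after knockdown past the fold threshold (0.64), and in rescue against knockdown mice the neutrophil genes *S100a8* (-0.78) and *S100a9* (-0.84) were lower and *Gzmb* of T and NK cells was higher (1.03). The 4 kidney markers, which checked the tissue, summed to 0.398 to 0.803 TPM in control, 0.925 to 1.80 TPM in knockdown and 1.23 to 1.81 TPM in rescue mice. The control mice thus lay below all others, at low levels in every group. Of the 4, 1 was at 0 throughout. *Lrp2* was higher in rescue than in control mice past the fold threshold (0.55), and after knockdown it was higher by 0.46, short of it. No other marker was at 0 in all mice. The part of cell composition in the results below was not tested. In bulk liver, fewer cells of a type and less RNA per cell cannot be told apart.

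The 39 enzymes together made up 2.0% ± 0.206 (SD, n = 4) of all TPM in control mice, 1.79% ± 0.193 in knockdown mice and 1.82% ± 0.0950 in rescue mice, and these shares overlapped between the groups. Mean levels over the 12 mice ran from 21.2 TPM for *Sdsl*, a serine dehydratase-like gene, to 2567 TPM for *Mat1a*, the liver methionine adenosyltransferase that makes S-adenosylmethionine. Of the 9 pathway groups, the 6 enzymes of methionine and transsulfuration had the largest sum in control mice, 6458 ± 646 TPM (SD), followed by the 4 enzymes of tyrosine breakdown with 5093 ± 1134 TPM.

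In knockdown livers, *Tat*, *Agxt*, *Got1*, *Hal*, *Sds* and *Dbt* were lower than in control livers past the fold threshold, with log2 fold changes between -0.80 and -0.52, and 0 of the 39 were higher past it. The threshold is that of the study, more than 0.5 on the log2 scale together with p under 0.05 before adjustment, here for log2(TPM + 1) in a limma model of all 3 groups. The 6 lower enzymes are 15.4% of the 39, whereas 2.30% of all 16378 genes were lower and 5.35% higher past the same threshold (7.65% in either direction). At an adjusted p under 0.05 (Benjamini-Hochberg over all genes), 2 of the 39 were called, *Bckdha* at a higher and *Dbt* at a lower level, where 3.23% of all genes were called, 2.44% as higher and 0.794% as lower. A negative fold change was found for 25 of the 39, and 65.5% of all genes had a positive one. The median log2 fold change was -0.09 for the 39 and 0.09 for all genes, and 30 of the 39 lay below the median of all genes. An unadjusted p under 0.05 was reached by 13 of the 39, and by 20.2% of all genes.

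Between rescue and knockdown livers, 0 of the 39 passed the fold threshold, which 2.33% of all genes passed as higher and 0.672% as lower, and 0 had an adjusted p under 0.05, as did 0 of all genes (smallest adjusted p 0.117, limma). The smallest adjusted p among the 39 was 0.415, and 3 had an unadjusted p under 0.05, *Dbt*, *Kmo* and *Ftcd*, each at a higher level in rescue mice, which is 7.69% of the 39 where 10.7% of all genes had one. The median log2 fold change was 0.03 for the 39 and 0.09 for all genes. It was positive for 25 of the 39 and for 70.9% of all genes. The median of the 39 fell below 0, however, when the libraries were scaled by the median of ratios (-0.06) or without the 20 most abundant genes (-0.03). It also did so with array weights (-0.01).

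Between rescue and control livers, *Tat*, *Sds* and *Agxt* were lower past the fold threshold, 3 of the 39 (7.69%), where 0.641% of all genes were lower and 7.49% passed in either direction. *Bckdha* was higher with an adjusted p of 0.044 (limma), 1 of the 39, where 2.15% of all genes were called and 2.12% as higher. The fold change was positive for 17 of the 39 and for 81.9% of all genes. All genes together stood at a median log2 fold change of 0.17 in this comparison, and at -0.01 when scaled by the median of ratios. For *Tat*, *Sds*, *Agxt* and *Bckdha* the change between rescue and control mice is therefore also given with this median subtracted. Changes of the other enzymes between these groups are given without the subtraction, so they include this shift of all genes. Below the median of all genes lay 34 of the 39. Each group of mice enters 2 of the 3 comparisons, so the 3 sets of values are not independent of each other.

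**Figure D1:**
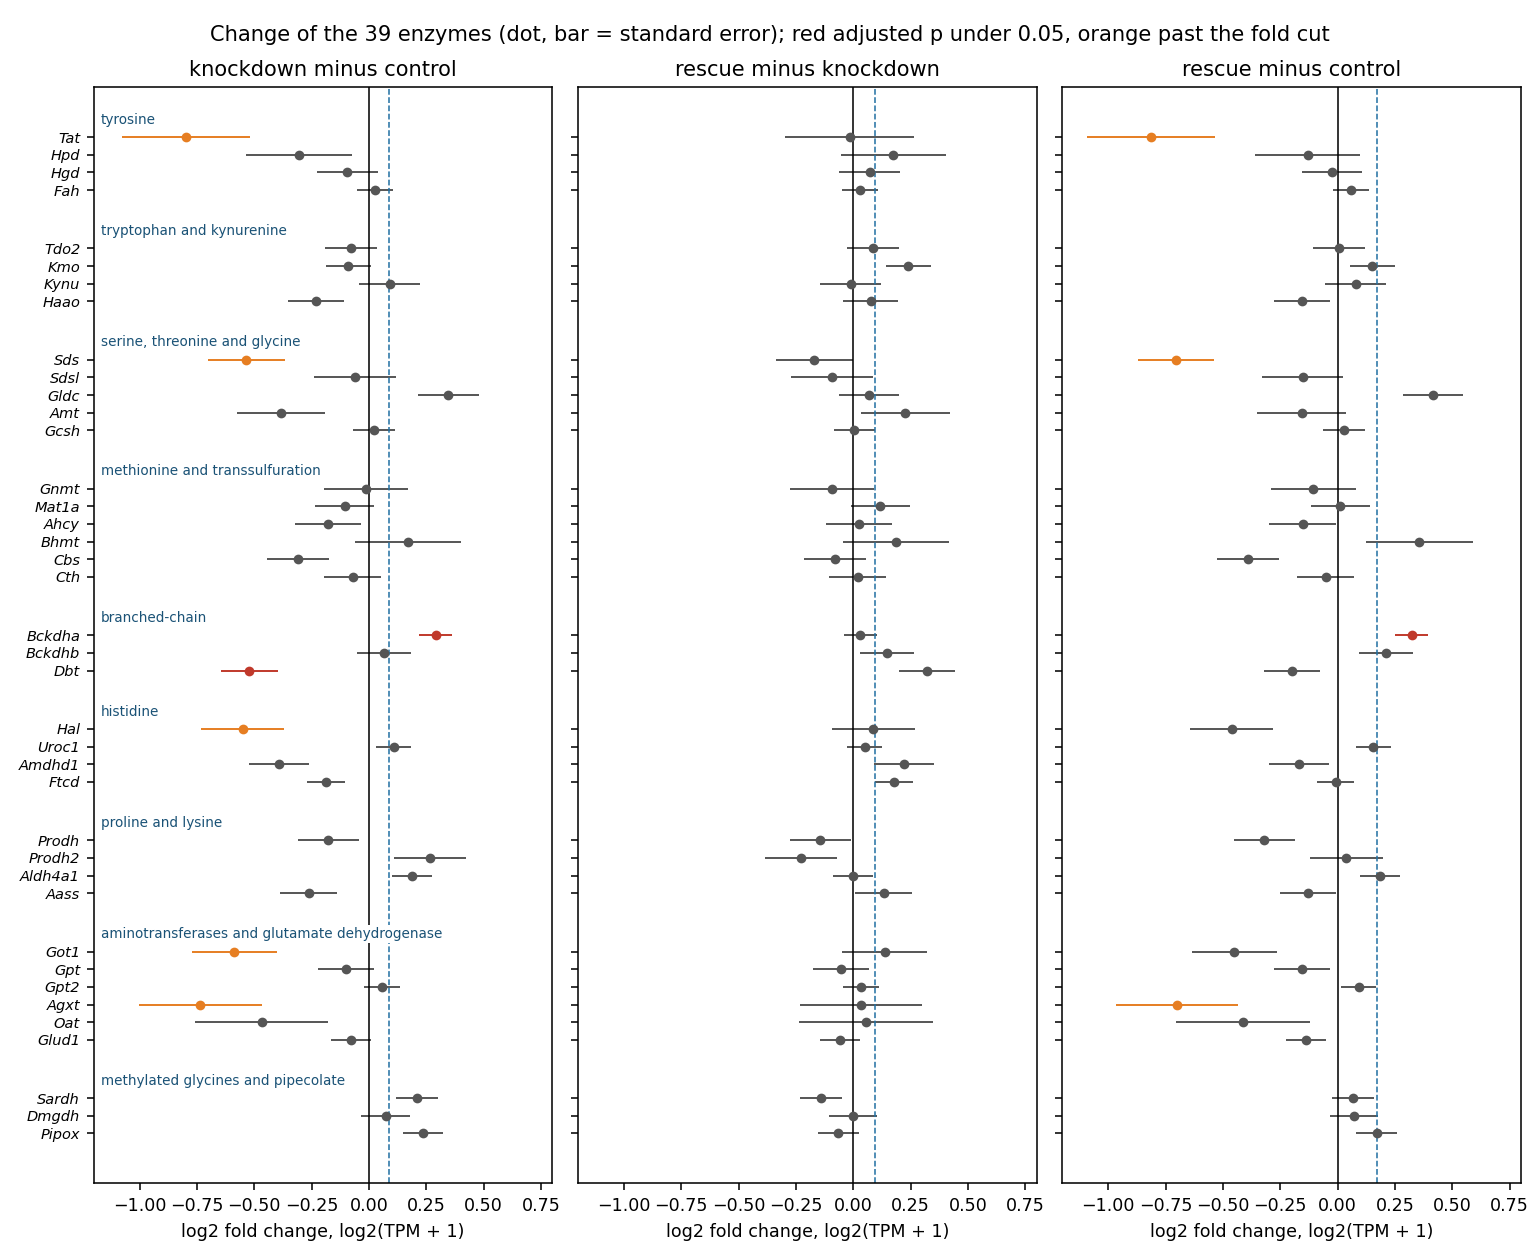
Log2 fold change of each enzyme on log2(TPM + 1), with its standard error as a bar, for knockdown against control (left), rescue against knockdown (middle) and rescue against control (right), 4 mice per group, by pathway. Red marks an adjusted p under 0.05, orange the fold threshold, and the dashed line the median of all 16378 genes. In the left panel 30 of the 39 dots lie to the left of the dashed line.

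The branched-chain group held both enzymes called after adjustment, and they changed in opposite directions. The branched-chain 2-oxoacid dehydrogenase complex carries out the irreversible step of leucine, isoleucine and valine breakdown. *Bckdha* and *Bckdhb* encode the alpha and beta subunits of its E1 decarboxylase, and *Dbt* the E2 transacylase that forms the core.

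*Bckdha* (ENSMUSG00000060376.7, chr7:25629852-25658782 in GRCm38.p6) was at 299.9, 309, 289.9 and 310.4 TPM in control mice 1 to 4, at 393, 371, 329 and 391 TPM in knockdown mice and at 387, 373, 371 and 383 TPM in rescue mice. Every knockdown and every rescue mouse lay above every control mouse. The log2 fold change was 0.29 ± 0.07 (SE) after knockdown, with an adjusted p of 0.048 (limma) and p = 0.0286 in an exact two-sided permutation test, the smallest that 4 mice against 4 allow. In rescue against control mice it was 0.32 ± 0.07, with an adjusted p of 0.044, which is 0.15 with the median of all genes subtracted. Scaled by the median of ratios, the change was 0.18 after knockdown (adjusted p = 0.295) and 0.12 in rescue mice (adjusted p = 0.606), so the call depended on the scaling.

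*Dbt* (ENSMUSG00000000340.10, chr3:116513070-116549981, overlapping the pseudogene Gm4596) was at 81.0, 71.2, 88.5 and 75.7 TPM in control mice, at 43.8, 52.6, 67.7 and 57.1 TPM in knockdown mice and at 62.6, 63.4, 74.4 and 74.7 TPM in rescue mice. Every knockdown mouse lay below every control mouse, and the rescue mice overlapped both. *Dbt* fell by 0.52 ± 0.12 (SE) on the log2 scale after knockdown, to 0.697 times the control level (adjusted p = 0.041, limma; exact permutation p = 0.0286). The rescue mice were 0.32 ± 0.12 above the knockdown mice, with an adjusted p of 0.415, and at -0.20 ± 0.12 against control, with an adjusted p of 0.320. Scaled by the median of ratios, the change after knockdown was -0.63 with an adjusted p of 0.026.

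Both adjusted calls after knockdown were close to the threshold. With 1 of the 12 mice left out in turn, each stayed under 0.05 in 1 of the 12 fits, that without knockdown mouse 3. Leaving out any other mouse gave adjusted p-values of 0.055 to 0.131 for *Bckdha* and of 0.052 to 0.119 for *Dbt*, with the direction kept. The call of *Bckdha* in rescue mice stayed in 4 of 12 fits, those without control mouse 1 or knockdown mouse 1, 2 or 3, and the other 8 gave 0.057 to 0.156.

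The ratio of E1 alpha to E2 within each mouse was computed after these values were seen, and no test was made of it. *Bckdha* TPM was 3.70, 4.34, 3.27 and 4.10 times that of *Dbt* in control mice, 8.96, 7.05, 4.86 and 6.85 times in knockdown mice, and 6.18, 5.88, 4.98 and 5.13 times in rescue mice. The control mice lay below all others, and the means were 3.85 ± 0.469 (SD, n = 4), 6.93 ± 1.67 and 5.54 ± 0.581. Between control and knockdown mice this separation follows from the levels above, *Bckdha* higher and *Dbt* lower in every knockdown mouse. It adds no further evidence. Relative to *Dbt*, *Bckdhb* stood at 1.38 ± 0.136 in control, 2.10 ± 0.363 in knockdown and 1.84 ± 0.244 in rescue mice, whereas the ratio of *Bckdha* to *Bckdhb* overlapped between all groups, with means of 2.80, 3.34 and 3.02. *Bckdhb* itself had a log2 fold change of 0.06 ± 0.12 after knockdown and of 0.21 ± 0.12 in rescue against control mice. Of the regulators of the complex, the kinase *Bckdk* had a log2 fold change of 0.07 ± 0.09 after knockdown with an adjusted p of 0.737, and the phosphatase *Ppm1k* one of -0.23 ± 0.10 with an adjusted p of 0.233 (limma).

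**Figure D2:**
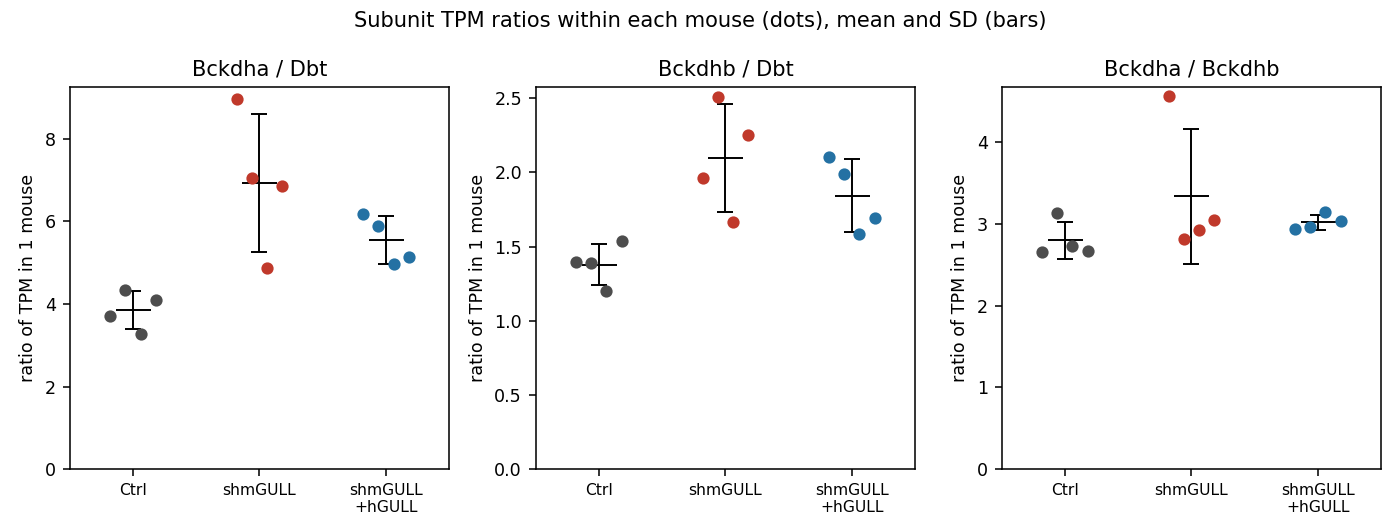
Ratios of TPM between subunits of the branched-chain 2-oxoacid dehydrogenase complex within each mouse (dots, vertical axis), with the group mean and SD as bars, for the 3 groups of 4 mice. The ratio of Bckdha to Dbt is 3.27 to 4.34 in control mice and 4.86 to 8.96 in knockdown mice.

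Tyrosine breakdown begins with *Tat*, the tyrosine aminotransferase, and continues through *Hpd*, *Hgd* and *Fah*. *Tat* (ENSMUSG00000001670.13, chr8:109986078-109999804, overlapping the pseudogene Gm45795) was at 1598, 2935, 3257 and 2932 TPM in control mice, at 1864, 834, 1635 and 1923 TPM in knockdown mice and at 1176, 1372, 1747 and 1659 TPM in rescue mice. Control mouse 1 lay within the range of both other groups, and the other control mice lay above all of them. The log2 fold change was -0.80 ± 0.28 (SE) after knockdown, a level 0.575 times that of control (adjusted p = 0.131, limma; exact permutation p = 0.114), and -0.81 ± 0.28 in rescue against control mice (adjusted p = 0.11), which is -0.99 with the median of all genes subtracted. It passed the fold threshold in each of the 12 fits that leave out 1 mouse, in both comparisons. Rescue and knockdown mice differed by -0.02 ± 0.28.

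The enzymes after *Tat* passed no threshold. *Hpd*, the 4-hydroxyphenylpyruvate dioxygenase, averaged 1302 ± 343 TPM (SD) in control, 1054 ± 298 TPM in knockdown and 1161 ± 155 TPM in rescue mice, with a log2 fold change of -0.31 after knockdown. *Hgd*, the homogentisate dioxygenase, and *Fah*, the fumarylacetoacetase that ends the pathway, had log2 fold changes of -0.09 and 0.03. *Fah* varied little, with 637 ± 13.3 TPM in control, 651 ± 58.3 TPM in knockdown and 662 ± 23.3 TPM in rescue mice.

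Of the 6 aminotransferases and glutamate dehydrogenase, *Got1* and *Agxt* were lower after knockdown past the fold threshold, and all 6 lay below the median of all genes. *Agxt* (ENSMUSG00000026272.6, chr1:93135240-93145421), the peroxisomal enzyme that turns glyoxylate into glycine, was at 149.8, 266, 178 and 157 TPM in control mice, at 114, 63.0, 157 and 127 TPM in knockdown mice and at 106, 101, 158 and 92.3 TPM in rescue mice. The groups overlapped at the level of knockdown mouse 3 and rescue mouse 3, near 157 TPM. The log2 fold change was -0.74 ± 0.27 after knockdown (adjusted p = 0.142, limma) and -0.70 ± 0.27 in rescue against control mice (adjusted p = 0.138), the latter -0.87 with the median of all genes subtracted. The first no longer passed without control mouse 2 or knockdown mouse 2, and the second without control mouse 2 or rescue mouse 4.

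*Got1* (ENSMUSG00000025190.13, chr19:43499752-43524605), the cytosolic aspartate aminotransferase, was at 342, 381, 481 and 517 TPM in control mice, at 311, 213, 262 and 364 TPM in knockdown mice and at 239.9, 315, 328 and 373 TPM in rescue mice. Of the knockdown mice, 1 lay above the lowest control mouse, and the same held for the rescue mice. The log2 fold change was -0.59 ± 0.19 after knockdown (adjusted p = 0.098, limma) and -0.45 ± 0.19 in rescue against control mice (adjusted p = 0.158). The first fell short of the fold threshold without control mouse 4 or knockdown mouse 2, at -0.49 and -0.45.

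*Glud1*, the glutamate dehydrogenase that releases ammonia in mitochondria, had the highest mean of this group and moved little. It was at 724, 676, 682 and 620.3 TPM in control mice, at 621, 634, 724 and 582 TPM in knockdown mice and at 663, 609.6, 582 and 598 TPM in rescue mice, with a log2 fold change of -0.08 ± 0.09 after knockdown. The alanine aminotransferases *Gpt* and *Gpt2* had log2 fold changes of -0.10 and 0.06. *Oat*, the ornithine aminotransferase, had one of -0.47 ± 0.29 and the widest spread of the group, with 403 ± 206 TPM (SD) in knockdown mice, a range of 248 to 684 TPM.

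Serine, threonine and glycine breakdown held the widest contrast within a group in rescue livers. *Sds* (ENSMUSG00000029597.14, chr5:120476547-120483932, overlapping the protein-coding gene Plbd2), the dehydratase that turns serine into pyruvate, was at 411, 576, 523 and 487 TPM in control mice, at 423, 243, 314 and 421 TPM in knockdown mice and at 289, 342, 312 and 276 TPM in rescue mice. All rescue mice lay below all control mice, while knockdown mice 1 and 4 lay above control mouse 1. The log2 fold change was -0.54 ± 0.17 after knockdown (adjusted p = 0.097, limma), and it fell short of the fold threshold without control mouse 2, knockdown mouse 2 or knockdown mouse 3. In rescue against control mice it was -0.71 ± 0.17, with an adjusted p of 0.0503 and p = 0.0286 in an exact permutation test, which is -0.88 with the median of all genes subtracted.

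*Gldc* (ENSMUSG00000024827.10, chr19:30098441-30175441, overlapping the pseudogene Rpl31-ps20), the decarboxylase of the glycine cleavage system, was at 81.2, 71.0, 81.8 and 65.6 TPM in control mice, at 89.5, 123, 78.6 and 94.7 TPM in knockdown mice and at 102, 116, 90.9 and 91.9 TPM in rescue mice. The rescue mice lay above all control mice. Its log2 fold change was 0.35 ± 0.13 after knockdown (adjusted p = 0.159, limma), the largest positive value of the 39, and 0.42 ± 0.13 in rescue against control mice (adjusted p = 0.093). The other subunits of the same system that are among the 39 had values of -0.38 for *Amt*, the aminomethyltransferase, and 0.02 for *Gcsh*, the lipoyl carrier, after knockdown.

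Histidine breakdown runs from *Hal* through *Uroc1* and *Amdhd1* to *Ftcd*. *Hal* (ENSMUSG00000020017.14, chr10:93488768-93516761), the ammonia-lyase of the first step, was at 119, 175, 202 and 141 TPM in control mice, at 103, 83.0, 117 and 126 TPM in knockdown mice and at 107, 93.0, 144 and 114 TPM in rescue mice. Of the knockdown mice, only mouse 4 lay above the lowest control mouse, and of the rescue mice only mouse 3. The log2 fold change was -0.55 ± 0.18 after knockdown (adjusted p = 0.109, limma), short of the fold threshold without control mouse 2, control mouse 3 or knockdown mouse 2, and -0.46 ± 0.18 in rescue against control mice.

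*Uroc1*, the urocanate hydratase of the second step and the most abundant of the pathway, was at 349, 342, 382 and 379 TPM in control, at 367, 401, 378 and 418 TPM in knockdown and at 376, 410.2, 434 and 399 TPM in rescue mice, with a log2 fold change of 0.11 ± 0.08 after knockdown. *Amdhd1*, the imidazolonepropionase that follows, stood at 157 ± 24.0, 119 ± 17.5 and 139 ± 14.8 TPM (SD), a log2 fold change of -0.39 ± 0.13 after knockdown with an adjusted p of 0.115. *Ftcd*, which passes the formimino group to tetrahydrofolate, was at 331, 335, 326 and 315 TPM in control, at 304, 247, 308 and 292 TPM in knockdown and at 306, 331, 351 and 312 TPM in rescue mice, and the knockdown mice lay below all control mice. Its log2 fold change was -0.19 ± 0.08 after knockdown (adjusted p = 0.221, limma) and 0.18 ± 0.08 in rescue against knockdown mice (adjusted p = 0.464). Including *Ftcd*, 3 of the 39 had groups that did not overlap after knockdown, *Bckdha* above control and *Dbt* and *Ftcd* below, which is 7.69% where 8.99% of all genes did not overlap (6.93% above and 2.06% below).

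**Figure D3:**
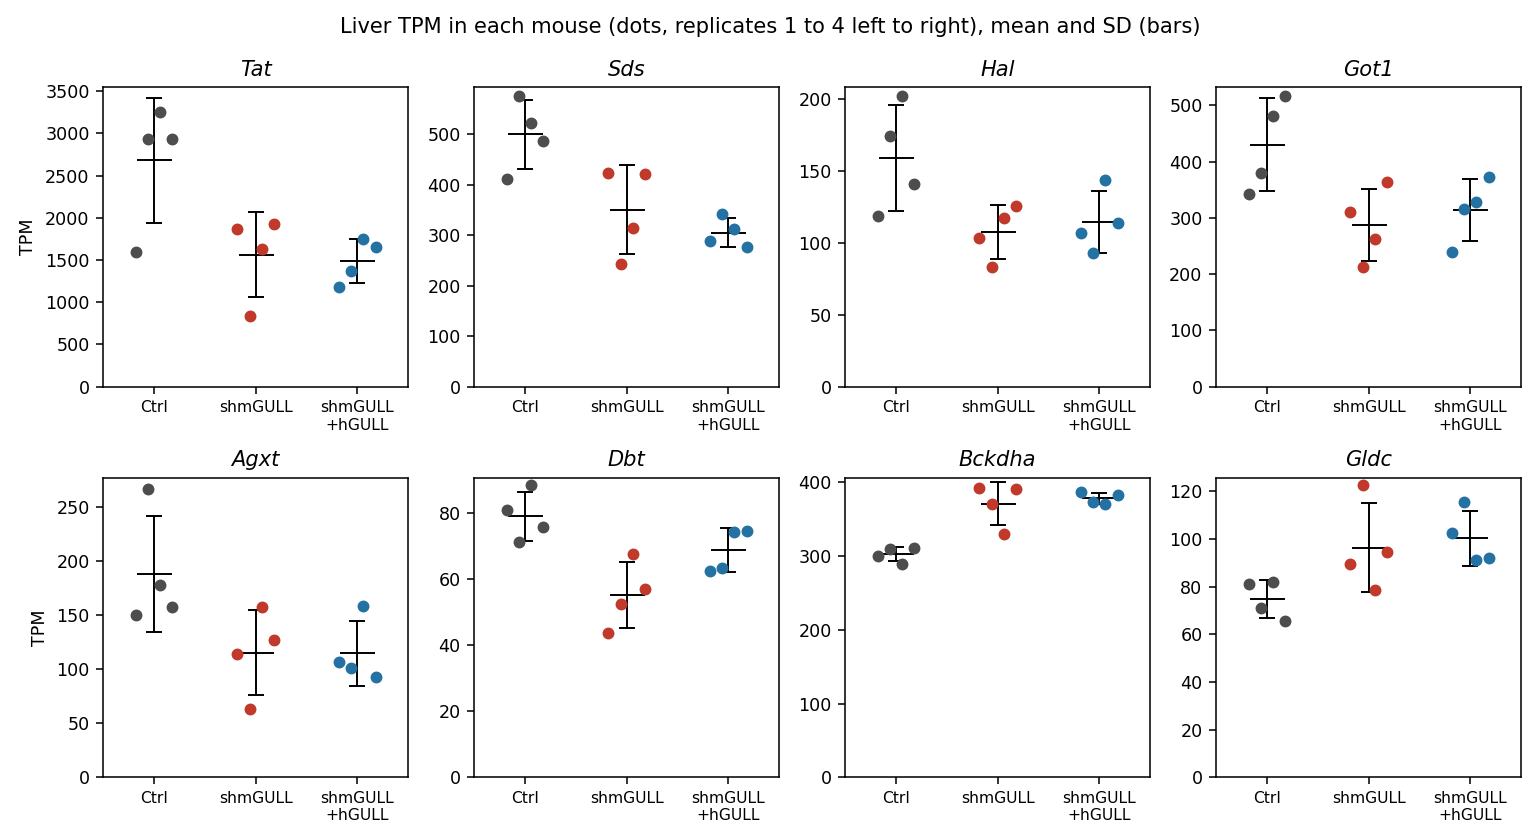
TPM of 8 enzymes in each of the 12 mice (dots, replicates 1 to 4 from left to right), with group means and SDs as bars, axes starting at 0. In the panels of Tat, Sds, Hal, Got1 and Agxt, control mouse 1 and knockdown mouse 2 are the lowest of their groups.

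None of the 6 enzymes of methionine and transsulfuration passed a threshold in any comparison. *Mat1a* was at 2207, 2341, 2943 and 3041 TPM in control mice, at 2304, 2398, 2421 and 2574 TPM in knockdown mice and at 2414, 2537, 2499 and 3122 TPM in rescue mice, with log2 fold changes of -0.11 ± 0.13 after knockdown and 0.01 ± 0.13 in rescue against control mice. *Gnmt*, the glycine methyltransferase that uses up S-adenosylmethionine, averaged 2098, 2119 and 1949 TPM in the same order. *Cbs*, the synthase that commits homocysteine to cysteine, had the lowest values of the group, at -0.31 ± 0.13 after knockdown (adjusted p = 0.217, limma) and -0.39 ± 0.13 in rescue against control mice (adjusted p = 0.11). Its rescue mice, at 72.6 to 89.2 TPM, lay below all control mice, at 92.2 to 128 TPM. *Ahcy*, *Bhmt* and *Cth*, which hydrolyse S-adenosylhomocysteine, remethylate homocysteine and cleave cystathionine, had values of -0.18, 0.17 and -0.07 after knockdown.

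Tryptophan and kynurenine breakdown likewise held no enzyme past a threshold. *Tdo2*, the dioxygenase that opens the tryptophan ring, was at 1525, 1406, 1716 and 1557 TPM in control mice, at 1397, 1608, 1266 and 1615 TPM in knockdown mice and at 1806, 1488, 1519.8 and 1428 TPM in rescue mice, and its log2 fold change was -0.08 ± 0.11 after knockdown. *Kmo*, the kynurenine monooxygenase, was the only 1 of the 39 whose rescue and knockdown mice did not overlap, 2.56% where 6.38% of all genes did not (5.40% with rescue above). It was at 229.9, 209, 267 and 254 TPM in control mice, at 192, 236, 227 and 247 TPM in knockdown mice and at 272, 282, 249 and 259 TPM in rescue mice. The change between the latter groups was 0.24 ± 0.10, with an adjusted p of 0.422 (limma; exact permutation p = 0.0286). *Kynu*, the kynureninase, and *Haao*, the 3-hydroxyanthranilate dioxygenase, had values of 0.09 and -0.23 after knockdown.

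Among the enzymes of proline and lysine, *Aass*, the bifunctional aminoadipate-semialdehyde synthase that begins lysine breakdown, was at 253, 244, 353 and 328 TPM in control, at 215, 248, 239 and 271 TPM in knockdown and at 240.2, 263, 273 and 289 TPM in rescue mice, a log2 fold change of -0.26 ± 0.12 after knockdown (adjusted p = 0.260, limma). The proline dehydrogenase *Prodh* stood at -0.18 and -0.32 against control in knockdown and rescue mice, and the hydroxyproline dehydrogenase *Prodh2* at 0.27 and 0.04. *Aldh4a1*, a dehydrogenase that acts after both, stood at 0.19 in both comparisons.

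The mitochondrial and peroxisomal oxidases of methylated glycines and pipecolate had positive values after knockdown in 3 of 3 cases, 0.21 for *Sardh*, 0.07 for *Dmgdh* and 0.24 for *Pipox*, and scaled by the median of ratios *Dmgdh* turned negative (-0.04). *Sardh*, the sarcosine dehydrogenase, was at 519, 553, 507 and 547 TPM in control mice, at 699, 526, 593 and 652 TPM in knockdown mice and at 542, 527, 578 and 583 TPM in rescue mice. Knockdown mouse 2 lay within the control range. The adjusted p was 0.221 for *Sardh* and 0.157 for *Pipox* after knockdown (limma).

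In rescue against control mice, 7 of the 39 had groups that did not overlap (17.9%, where 22.3% of all genes did not overlap). They were *Bckdha*, *Bckdhb*, *Gldc*, *Aldh4a1* and *Pipox* above control and *Sds* and *Cbs* below. The 5 higher ones are set against 21.4% of all genes that were higher without overlap, and the 2 lower ones against 0.855% that were lower.

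Within groups, the lowest values were often those of the same mice. Control mouse 1 had the lowest value of its group for 17 of the 39 and for 5 of the 6 enzymes that were lower after knockdown past the fold threshold. Knockdown mouse 2 was lowest for 17 of the 39 and for 5 of those 6, and knockdown mouse 1 was lowest for 18 of the 39. Rescue mouse 1 was lowest for 17 of the 39 and for 3 of those 6. Over all genes tested, the median absolute deviation from the group mean (log2 scale) was 0.197, 0.194, 0.134 and 0.116 in knockdown mice 1 to 4. It was 0.153, 0.154, 0.118 and 0.0947 in control mice, and 0.0915, 0.0819, 0.0803 and 0.0919 in rescue mice. How often each mouse was lowest over all genes was not counted. Without knockdown mouse 2, the number past the fold threshold fell from 6 to 2, *Dbt* and *Tat*, and without control mouse 2 it fell to 3, *Dbt*, *Got1* and *Tat*. Without control mouse 1 it was 7, with *Hpd* added.

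**Figure D4:**
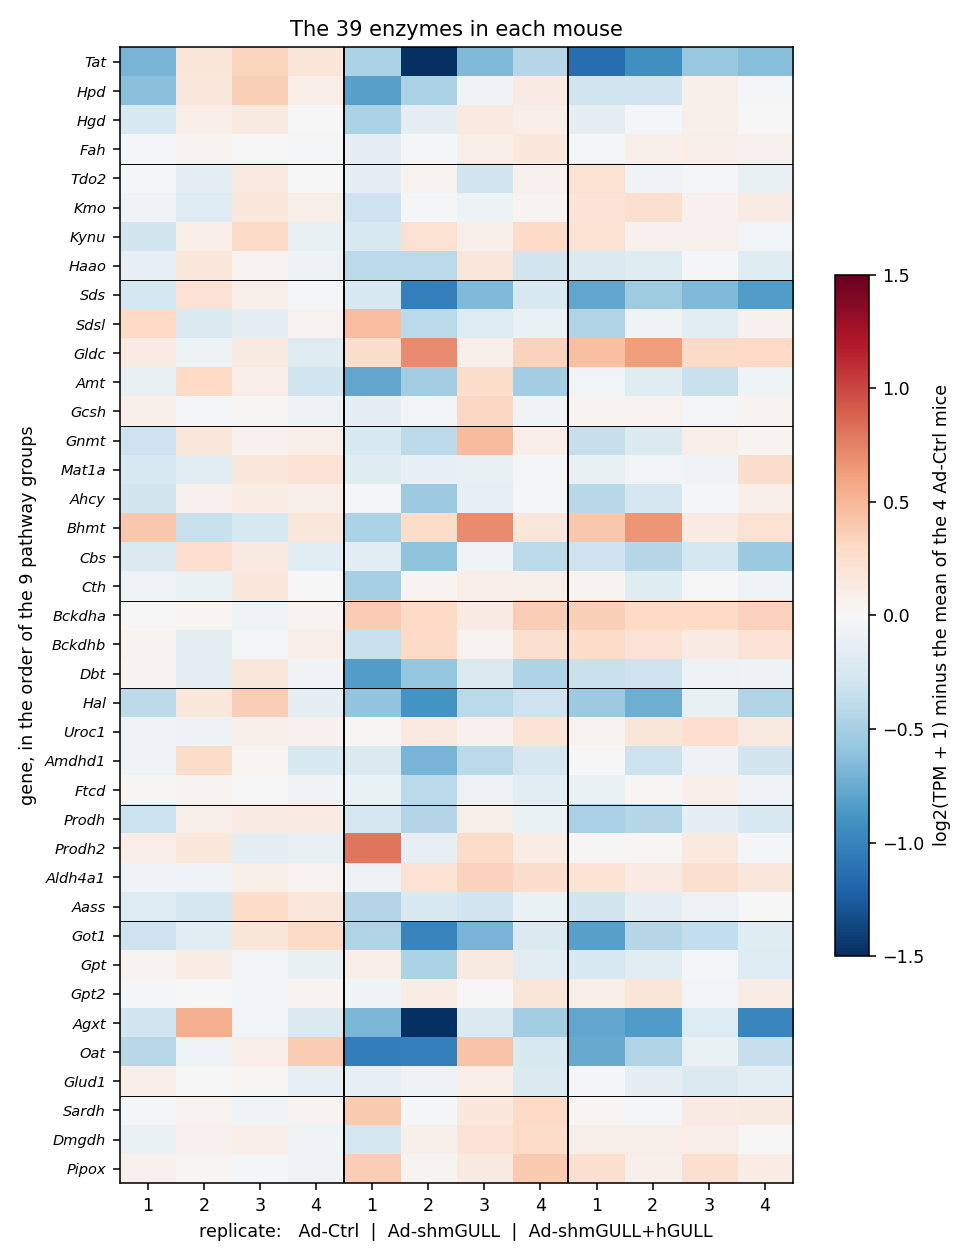
The 39 enzymes (rows, by pathway) in each of the 12 mice (columns), as log2(TPM + 1) minus the mean of the 4 control mice. The colour scale ends 1.5 from 0 on either side, and values beyond it, down to -1.63 for Tat in knockdown mouse 2, are drawn at its end. The rows of Tat, Sds, Got1, Agxt, Hal and Dbt are blue, below the control mean, in all 8 knockdown and rescue mice. The same holds for other rows, that of Cbs among them.

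Other genes of the same pathways were a list of 54, of which 52 passed the filter. After knockdown 2 of the 52 had an adjusted p under 0.05 (limma), both at higher levels and both of sulfur metabolism. Of all genes, 3.23% were called at this threshold, 2.44% as higher. *Csad*, the decarboxylase of taurine synthesis, was at 367, 309.7, 288 and 273 TPM in control, at 716, 590.4, 488 and 488 TPM in knockdown and at 539, 419, 328 and 406 TPM in rescue mice. Every knockdown mouse lay above every control mouse, with a log2 fold change of 0.87 ± 0.16 (adjusted p = 0.017, limma), and the rescue mice lay -0.44 ± 0.16 from the knockdown mice (adjusted p = 0.405). *Ethe1*, the mitochondrial persulfide dioxygenase, had a log2 fold change of 0.67 ± 0.17 after knockdown (adjusted p = 0.0495, limma), close to the threshold. Its groups overlapped, with control mouse 1 at 124 TPM and knockdown mouse 1 at 118 TPM. How this call depends on the scaling or on single mice was not examined.

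Past the fold threshold the list held 2 higher genes, the same *Csad* and *Ethe1*, and 2 lower ones after knockdown, together 7.69% of the 52 where 7.65% of all genes passed. The lower ones were *Aadat*, an aminotransferase of 2-aminoadipate and kynurenine, with a log2 fold change of -0.58 ± 0.21, and *Pccb*, the beta subunit of propionyl-CoA carboxylase, with -0.51 ± 0.14. Between rescue and knockdown 0 of the 52 passed either threshold (6 had an unadjusted p under 0.05 in limma, as did 10.7% of all genes). Between rescue and control 1 of the 52 passed the fold threshold, *Ethe1*. This is 1.92%, where 7.49% of all genes passed in either direction. The median log2 fold change of the 52 after knockdown was 0.06, and 37 of the 52 were positive (71.2%, where 65.5% of all genes were).

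The promoters of the enzymes were searched for the binding motif of CREB, because the study examined the coactivator CRTC2, which acts with CREB. The study reports that hGULL and mGULL inhibit CRTC2. It also reports higher mRNA of the gluconeogenic genes *G6pc* and *Pck1* after mGULL knockdown, measured by quantitative PCR. *Tat* and *Sds* changed here in the other direction after knockdown, and a part of CREB in their change was not tested. RefSeq promoter windows of GRCm38.p6, 250 bases before to 50 after a start, were found for 32 of the 39 enzymes (33 windows), and for 4 of the 6 that were lower past the fold threshold. The full motif TGACGTCA was in 0 of 33 windows, and in 1.79% of all 32851 windows. Its core TGACG, which is part of the full motif, was counted on both strands and found in 3 of 33 (9.09%), where 20.8% of all windows held it. The 3 were those of *Aass*, *Ftcd* and *Oat*, and 0 of the 4 windows of the lower enzymes held the core.

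Stretches of 120 bases from these windows are shown for the 4 lower enzymes, as the sequences without the core, and for *Aass* and *Ftcd*, in which the core is in capitals. They read 5′ to 3′ on the strand of the gene and end at the base before the start, except that of *Ftcd*, whose core begins 136 bases before the start. The position of the *Tat* start is inside the span that RefSeq gives for the gene. The stretches are chr8:109990316-109990435 on the plus strand for Tat, chr10:93488648-93488767 on the plus strand for Hal, chr19:43524606-43524725 on the minus strand for Got1, chr1:93135120-93135239 on the plus strand for Agxt, chr6:23132987-23133106 on the minus strand for Aass and chr10:76575454-76575573 on the plus strand for Ftcd.
Tat: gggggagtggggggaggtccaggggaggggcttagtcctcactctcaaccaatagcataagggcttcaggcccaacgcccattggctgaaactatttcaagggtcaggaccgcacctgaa
Hal: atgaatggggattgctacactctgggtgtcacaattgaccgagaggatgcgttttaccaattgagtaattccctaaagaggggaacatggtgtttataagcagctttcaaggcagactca
Got1: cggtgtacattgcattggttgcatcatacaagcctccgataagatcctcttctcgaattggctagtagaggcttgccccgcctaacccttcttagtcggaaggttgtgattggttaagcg
Agxt: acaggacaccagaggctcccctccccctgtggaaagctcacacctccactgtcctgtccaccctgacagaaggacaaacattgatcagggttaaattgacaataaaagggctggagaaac
Aass: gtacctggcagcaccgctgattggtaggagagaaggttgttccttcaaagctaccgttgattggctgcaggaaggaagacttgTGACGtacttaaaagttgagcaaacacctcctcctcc
Ftcd: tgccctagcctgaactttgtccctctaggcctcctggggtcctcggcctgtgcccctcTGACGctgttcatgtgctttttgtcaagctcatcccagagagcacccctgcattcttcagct
A match is a run of letters and not a shown binding site, and a window without one does not bear on binding elsewhere.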

How the data were processed

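Liver RNA-Seq values of 12 mice were grouped by their labels, 4 per group. The authors trimmed reads with fastp 0.23.2, checked them with FastQC 0.11.8, aligned them with HISAT2 2.2.1.0 to GRCm38.p6 and counted them with featureCounts of Subread 2.0, according to the submitters' processing notes. The deposited values are TPM per gene. The libraries were strand-specific, and the strand setting of the counting is not given in the sources used here, so reads of the 11 enzymes that overlap another annotated gene may be shared with it. Depth per mouse is unknown.

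Values were analysed as log2(TPM + 1) with limma 3.58.1 in R 4.3.3, for the 16378 features with a mean of at least 1 TPM, in 1 fit of 3 groups with a mean-variance trend and no covariate. A pseudocount of 1 understates changes of low genes. Adjusted p-values are Benjamini-Hochberg over all features tested. Exact two-sided permutation tests used scipy 1.17.1 in Python 3.11.15, and figures matplotlib 3.10.9. Every mouse's value was given for enzymes past a threshold in any comparison and for the most abundant of each pathway group, with *Gldc*, *Ftcd* and *Kmo* added after their values were seen. The fit was tested on simulated data, 10 sets with 200 genes changed by 1 on the log2 scale, and 77.4% of the changed genes were found at an adjusted p under 0.05, with 5.67% of calls false. The 39 enzymes changed by less than was simulated, with -0.81 the value farthest from 0. The rate found therefore does not carry over to them. As alternatives the fit was repeated with 0.1 added before the logarithm, without the filter, with at least 5 TPM on average, with scaling by the median of ratios, rescaling without the 20 most abundant genes, no trend, array weights, a replicate block and only the groups compared, and with each mouse left out. The enzymes and the other lists were chosen with earlier results of these data known. Positions and promoters are from RefSeq.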

Additional observations from a re-analysis of the deposited data

Results flagged for a closer look

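Dixon's test for 1 outlying mouse among 4 was applied to each of the 39 enzymes in each group, 117 groups of values, and 5 passed its critical value for 4 mice, where chance gives about 1 in 20. Control mouse 1 was low for *Ahcy*, at 617 TPM with the next mouse at 781 TPM, and for *Prodh*, at 45.8 TPM with the next at 60.8 TPM. Knockdown mouse 1 was low for *Cth*, at 195 TPM with the next at 285 TPM. In the rescue group, mouse 3 was high for *Haao*, at 145 TPM with the next at 131 TPM, and mouse 4 was low for *Dmgdh*, at 266 TPM with the next at 281 TPM. None of these 5 enzymes passed a threshold in any comparison.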

How the results depend on the processing

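The number of enzymes with an adjusted p under 0.05 after knockdown, 2 as reported, was 0 with no filter, with no trend and with only the 2 groups compared, and 1 with the median of ratios, without the 20 most abundant genes, with array weights and with the replicate block. It ranged from 0 to 4 when 1 mouse was left out. Past the fold threshold it was 6, and 2 with array weights (*Got1* and *Tat*), 7 with the median of ratios, and 2 to 7 when 1 mouse was left out. In rescue against control mice, 1 enzyme was called after adjustment as reported, 0 with no filter, the median of ratios, no trend, the replicate block and without the 20 most abundant genes, 2 when at least 5 TPM on average was required, 3 with only the 2 groups compared, 7 with array weights, and 0 to 4 when 1 mouse was left out. Past the fold threshold it was 3, and 7 with the median of ratios, 5 with array weights, 5 without the 20 most abundant genes, and 3 to 5 when 1 mouse was left out. Rescue against knockdown gave 0 at both thresholds under all 21 alternatives. The cause of these differences was not tested. *Tat* passed the fold threshold after knockdown in 21 of 21 alternatives, *Got1* in 19, *Dbt* and *Agxt* in 18, and *Sds* and *Hal* in 17. *Bckdha* kept an adjusted p under 0.05 in 4 of 21 (0.0158 to 0.295) and *Dbt* in 6 of 21 (0.0136 to 0.128), each with its direction in all 21. Same-numbered mice of different groups did not deviate together (correlations of -0.244 to 0.154 over 12 pairs, 2 of them above 0.1), so the numbers were not taken as pairs. The replicate block left 6 enzymes past the fold threshold after knockdown and 3 in rescue against control mice. The unknown depth leaves the counting error of each value unknown.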
